A study of Mus musculus with 12 samples.

Results

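Hematopoietic stem cell identity genes, the transcription factors, surface proteins and signalling components by which mouse blood stem cells are recognised or maintained, were followed through bone marrow progenitors of wild-type and preleukemic mice with and without irradiation. The members were 36 genes picked by symbol from the 25078 genes of the deposited tables, and all 36 had enough reads to enter the tests, which covered 14599 genes. Blood stem cells make up a small share of the marrow cells that lack lineage antigens and carry Sca-1 and the receptor Kit, the population called LSK; the other cells in it are multipotent progenitors. Stem cells within LSK are set apart by surface proteins such as CD150 (Slamf1) and EPCR (Procr) and by the absence of CD48, and their upkeep depends on transcription factors that include Hlf, Mecom, Meis1, Mllt3 and the Tal1, Lyl1, Lmo2, Erg and Fli1 group. Core binding factor, the complex of CBFB with a RUNX protein, is needed for stem cells to form in the embryo, and the Cbfb-MYH11 fusion, known from acute myeloid leukemia, alters that complex.

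The study set Cbfb-MYH11 mice at a preleukemic stage (CM) against wild-type mice (WT, called control in the sample titles). The library names carry WT for animal 2, C for animals 1 and 3 of that group and CHW for the CM animals, and what C and CHW stand for is not stated. LSK cells were sorted from marrow, given 3.5 Gy or the same incubation without irradiation, and collected 24 hours later for RNA sequencing. The groups were WT without irradiation (WT NIR), WT irradiated (WT IR), CM without irradiation (CM NIR) and CM irradiated (CM IR), with 3 libraries in each. Animals 1, 2 and 3 of each genotype, 6 in all, recur in both treatments, since the labels give an NIR and an IR library the same animal number. The labels name no driver of the fusion allele, no Cre line and no age.

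Total counts per library ran from 68.5 M to 110.8 M reads. Kit (148 to 284 CPM, counts scaled to library size) and Ptprc (294 to 531 CPM), which mark LSK and blood cells, were present in every library. Cbfb stood at 177 to 278 CPM, and a count per gene does not tell the fusion transcript from the normal one, so it does not check the genotype labels. Libraries CM NIR 1, CM IR 1 and CM NIR 3 stood apart from the other 9: on the first principal component, which held 51.5% of the variance, they lay between -78.8 and -75.0, while every other library lay between -8.92 and 45.1. CM IR 3 did not sit with CM NIR 3 of the same animal: its deviation from the group mean correlated with that of CM NIR 3 at 0.13 across genes, against 0.79 and 0.84 for CM animals 1 and 2, whereas CM NIR 3 correlated with CM IR 1 at 0.69. The numbers in the library names fall into a low series (WT 1, CM 1 and CM 2) and a high series (WT 2, WT 3 and CM 3), and what these series mean is not stated. In such bulk libraries fewer cells of a type and less RNA per cell cannot be told apart.

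Levels between genes were compared as the authors' deposited RPKM, which divides by gene length. By the median over the 12 libraries, 18 members were at or above 10 RPKM, 11 lay between 1 and 10 and 7 were under 1. Cd34, a sialomucin of stem and progenitor cells, was the highest at 202 RPKM, followed by Cd48 (147), the LIM protein gene Lmo2 (113), the ETS factor gene Etv6 (76.2), Ly6a (72.1), the redox regulator gene Txnip (72.0) and the transglutaminase gene Tgm2 (69.5). Among the lowest were Fgd5, which encodes a guanine nucleotide exchange factor and marks stem cells in reporter mice (0.238), the sulfotransferase gene Sult1a1 (0.081) and the lectin gene Clec1a (0.026). The members differed widely in how far they varied across libraries. Highest over lowest CPM was 1.26-fold for the ETS factor gene Fli1, 1.54-fold for the homeobox gene Pbx3 and 1.59-fold for Mllt3. It was 29.3-fold for Mecom, 42.0-fold for the adhesion protein gene Esam and 55.8-fold for the guidance receptor gene Robo4. The lowest libraries of Esam and Robo4 held few reads, down to 8 for Esam and 4 for Robo4.

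**Figure D1:**
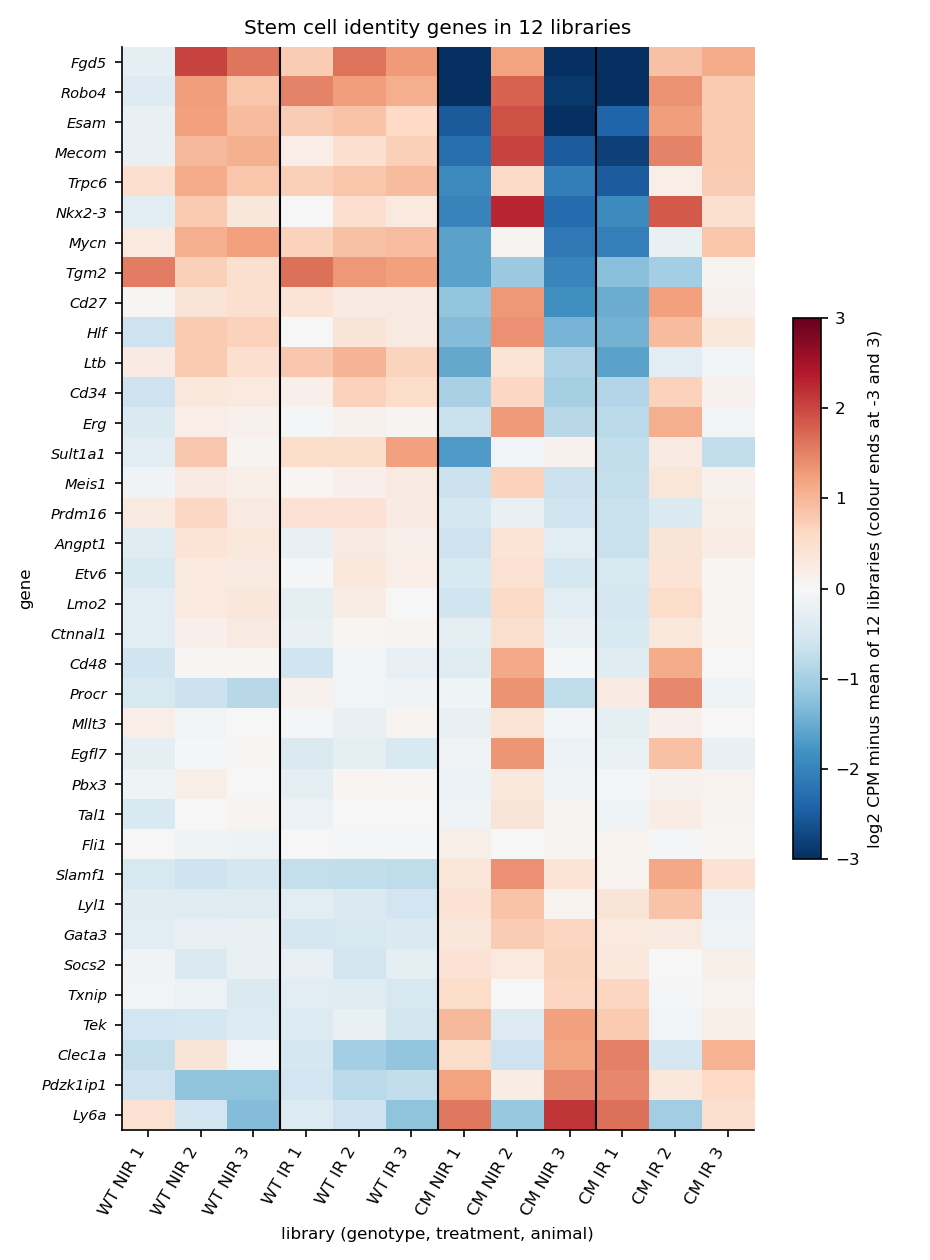
Heatmap of the 36 stem cell identity genes (rows, ordered by their mean in CM NIR 1, CM IR 1 and CM NIR 3) in the 12 libraries (columns, grouped by genotype and treatment), with colour giving log2 CPM minus the gene's mean over all libraries. CM NIR 1, CM IR 1 and CM NIR 3 share low values for genes such as Hlf, Mecom, Cd27 and Trpc6, and CM animal 2 is high for many of the same genes.

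Without irradiation, 4 of the 36 members differed between CM and WT, and the others did not pass. Pdzk1ip1, Socs2 and Gata3 were higher in CM and Tgm2 was lower, by edgeR's quasi-likelihood test with Benjamini-Hochberg adjustment over all genes tested at 5%. Fitted log2 changes are given ± a standard error throughout. For edgeR it is an approximation, the absolute log2 change divided by the square root of the F statistic. The share, 11.1% of members, stands beside 1.62% of all genes called in this comparison. By direction it was 3 higher (0.938% of all genes) and 1 lower (0.685%). The members were chosen with earlier results of these data known. Member shares, here and below, are therefore descriptions and not a test of the list. The median fitted log2 change over the members was 0.00047, against 0.02 over all genes tested, and with 1 library left out it ran from -0.58 (without CM NIR 2) to 0.18 (without CM NIR 3). At an unadjusted p under 0.05 the count was 11 of 36, against 15.1% of all genes. DESeq2 called 8 members (6.32% of all genes), the same 4 with Lyl1, Prdm16, Slamf1 and Tek, and limma-voom 4 (1.49%).

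Tgm2 encodes a calcium-dependent enzyme that crosslinks proteins (chr2:158116405-158146392, minus strand, mm10). Its level was 592, 334 and 286 CPM in WT NIR, 644, 500.3 and 477 in WT IR, 66.6, 93.5 and 51.3 in CM NIR and 85.5, 100.2 and 215 in CM IR, in the order of animals 1, 2 and 3 that is kept for every gene. All 6 CM libraries lay below all 6 WT libraries. The group means of 404 ± 164 CPM in WT NIR and 70.4 ± 21.4 in CM NIR (SD, n = 3) were 5.74-fold apart. The log2 fold change was -2.52 ± 0.40 (adjusted p = 0.0201, edgeR's quasi-likelihood test), and within the low and the high library series it was -2.91 and -2.59. The highest CM value came from CM IR 3. The summed level of 8 eosinophil markers was also lower in CM. It was 89.3 to 188 CPM in the WT libraries, 5.06, 2.01 and 4.24 in CM NIR and 6.28, 8.64 and 29.7 in CM IR. CM IR 3 was the highest CM library in both, but in CM NIR animal 2 was highest in Tgm2 and lowest in the sum. The part of these markers in the Tgm2 result was not tested.

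Pdzk1ip1 encodes MAP17, a small membrane protein that binds PDZ domain proteins (chr4:115088708-115093894, plus strand, mm10). Its level was 1.59, 1.04 and 1.05 CPM in WT NIR, 1.63, 1.39 and 1.45 in WT IR, 5.65, 2.84 and 6.63 in CM NIR and 6.71, 3.05 and 3.72 in CM IR. The CM libraries were all above the WT libraries, and the set-apart libraries CM NIR 1, CM IR 1 and CM NIR 3 were the highest of all. Between the means of 1.23 ± 0.312 CPM in WT NIR and 5.04 ± 1.96 in CM NIR (SD, n = 3) there was a 4.11-fold difference, fitted on the log2 scale as 2.04 ± 0.38 (adjusted p = 0.0306, edgeR). Within the low and the high series the unfitted difference was 1.29 and 2.55, the latter resting on the set-apart library CM NIR 3. Pdzk1ip1 begins 17.0 kb downstream of Tal1 on the same strand of chromosome 4, and Tal1, a basic helix-loop-helix factor needed for blood formation, was fitted at 0.24 ± 0.16 (adjusted p = 0.524, edgeR).

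Gata3 encodes a zinc finger factor of lymphoid cells that is also made in stem cells (chr2:9857078-9878600, minus strand, mm10). It was measured at 2.57, 2.75 and 2.79 CPM in WT NIR, 2.30, 2.35 and 2.40 in WT IR, 4.15, 5.59 and 5.09 in CM NIR and 4.02, 3.96 and 3.03 in CM IR. Every CM library exceeded every WT library, and the set-apart libraries did not stand out. The log2 fold change without irradiation was 0.87 ± 0.17 (adjusted p = 0.0394, edgeR), from 2.70 ± 0.119 to 4.94 ± 0.730 CPM (SD, n = 3), and 0.88 and 0.85 within the series. Socs2, a suppressor of cytokine signalling that acts on JAK and STAT pathways (chr10:95411490-95416857, minus strand, mm10), stood at 47.9, 38.6 and 44.2 CPM in WT NIR, 43.9, 35.4 and 42.2 in WT IR, 69.4, 63.2 and 81.7 in CM NIR and 64.5, 50.96 and 58.2 in CM IR. Its CM and WT libraries did not overlap, and the fitted log2 change was 0.71 ± 0.14 (adjusted p = 0.0352, edgeR), with 0.47 and 0.98 within the series.

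These 4 calls depended on how the libraries of an animal were treated. A fit that takes the animal as a random block (limma-voom, estimated correlation 0.72) gave adjusted p-values of 0.0899 for Socs2, 0.107 for Tgm2, 0.118 for Pdzk1ip1 and 0.168 for Gata3, and called 0 members (0.0342% of all genes; 11 members at an unadjusted p under 0.05, against 12.4%). Each of the calls was also lost when any 1 of WT NIR 1, 2 or 3, CM NIR 1 or CM NIR 3 was left out, with edgeR's adjusted p from 0.0520 to 0.0971 for Tgm2, 0.0599 to 0.138 for Pdzk1ip1, 0.0604 to 0.139 for Socs2 and 0.0937 to 0.142 for Gata3, while without CM NIR 2 the 4 held. With the library number series as a term Tgm2 was still called (adjusted p = 0.0362, edgeR), and Pdzk1ip1, Socs2 and Gata3 were not (0.0519, 0.0538 and 0.0526). Gata3 was also lost with no filter on low counts (adjusted p = 0.0646, edgeR).

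**Figure D2:**
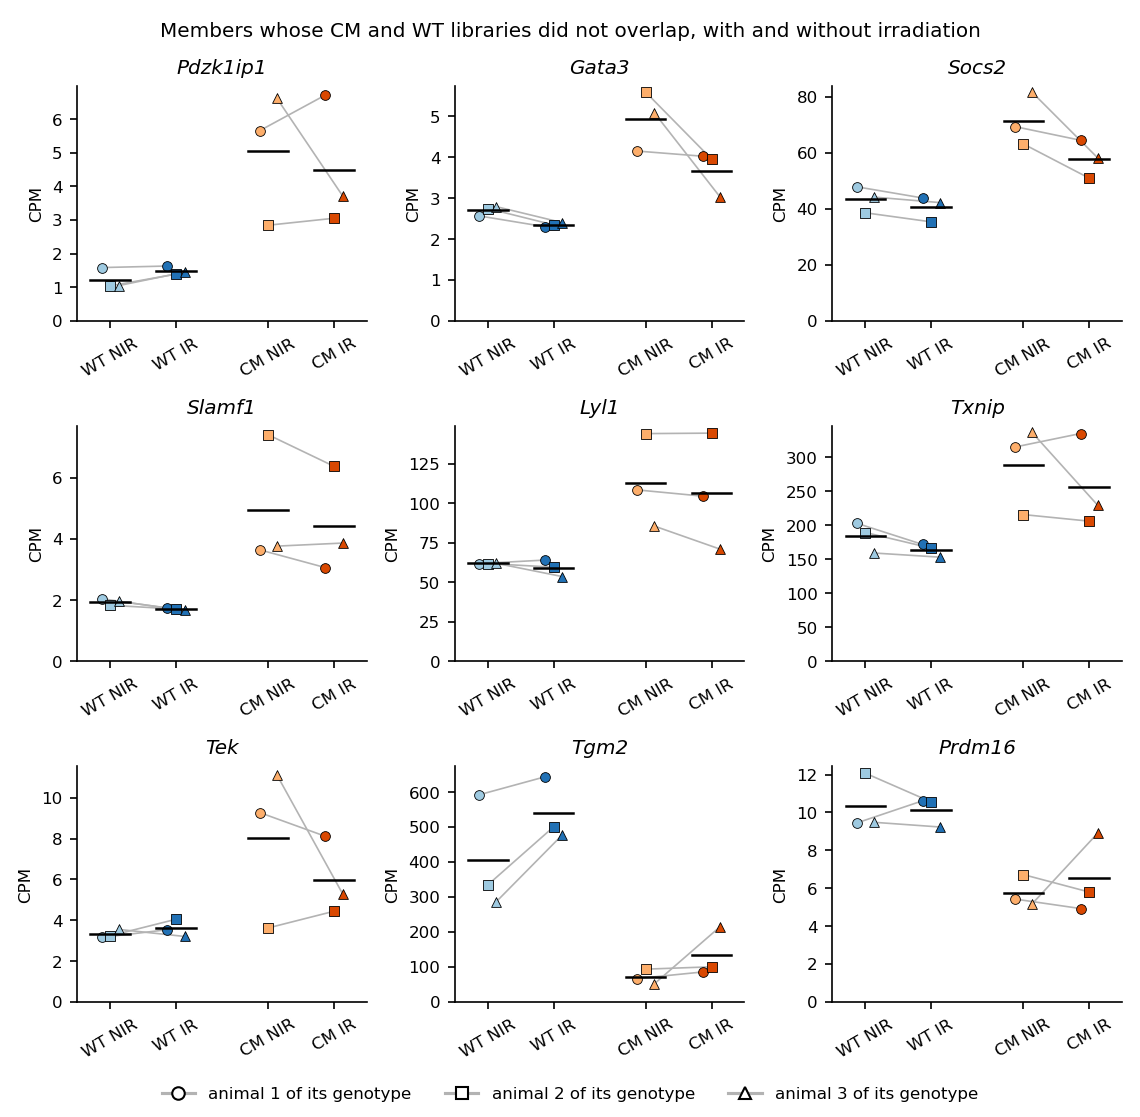
CPM of 9 members whose CM and WT libraries did not overlap in either treatment, each point 1 library in the groups WT NIR, WT IR, CM NIR and CM IR, with black bars at the group mean (n = 3) and grey lines joining the libraries of an animal. Tgm2 is lower in every CM library and Pdzk1ip1, Gata3 and Socs2 are higher in every CM library than in any WT library.

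Promoter sequence is shown for both of the called genes with an entry in the RefSeq promoter table, Pdzk1ip1 and Gata3, and for Cd48 and Meis1, the members whose windows hold the RUNX letters TGTGGT, since CBFB works as the partner of RUNX proteins. The windows run from 250 bases before to 50 bases after the gene start in GRCm38.p6 and read 5′ to 3′ on the gene's own strand. Capitals mark TGTGGT and, on the opposite strand, the ETS letters GGAAGT (written ACTTCC). The 4 windows are chr4:115088458-115088757 on the plus strand for Pdzk1ip1, chr2:9878551-9878850 on the minus strand for Gata3, chr1:171681742-171682041 on the plus strand for Cd48 and chr11:19018920-19019219 on the minus strand for Meis1.
Pdzk1ip1: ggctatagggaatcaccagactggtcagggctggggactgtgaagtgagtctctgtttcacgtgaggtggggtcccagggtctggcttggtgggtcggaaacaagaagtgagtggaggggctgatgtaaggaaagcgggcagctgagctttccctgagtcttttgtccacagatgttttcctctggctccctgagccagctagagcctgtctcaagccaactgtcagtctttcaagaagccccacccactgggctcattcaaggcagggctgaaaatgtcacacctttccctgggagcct
Gata3: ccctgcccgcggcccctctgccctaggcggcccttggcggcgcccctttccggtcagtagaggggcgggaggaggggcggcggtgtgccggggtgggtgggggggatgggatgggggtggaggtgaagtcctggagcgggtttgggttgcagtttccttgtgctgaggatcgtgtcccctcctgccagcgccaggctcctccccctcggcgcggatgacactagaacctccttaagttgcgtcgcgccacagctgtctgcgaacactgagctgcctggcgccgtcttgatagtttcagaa
Cd48: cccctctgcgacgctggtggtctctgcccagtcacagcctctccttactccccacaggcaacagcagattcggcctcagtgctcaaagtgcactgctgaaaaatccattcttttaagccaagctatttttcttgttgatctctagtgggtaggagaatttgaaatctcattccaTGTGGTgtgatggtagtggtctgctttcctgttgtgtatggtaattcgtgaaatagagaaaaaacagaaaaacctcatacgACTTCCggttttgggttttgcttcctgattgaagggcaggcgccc
Meis1: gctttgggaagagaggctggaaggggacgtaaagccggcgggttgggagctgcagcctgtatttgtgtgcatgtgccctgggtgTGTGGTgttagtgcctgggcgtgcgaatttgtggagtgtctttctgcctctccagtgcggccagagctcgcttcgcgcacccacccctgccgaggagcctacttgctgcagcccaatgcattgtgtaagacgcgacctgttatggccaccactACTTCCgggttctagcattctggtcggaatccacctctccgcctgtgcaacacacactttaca
Of the 36 members 27 matched the table, with 34 windows. TGTGGT or TGCGGT, searched on both strands, occurred in 2 of the 34 windows (5.88%), against 22.41% of all 32851 windows of that length. In Cd48 the letters begin 76 bases and in Meis1 166 bases before the gene start. The GATA letters AGATAA were in 3 member windows (8.82%, against 11.18% of all) and GGAAGT in 5 (14.71%, against 23.77%). The Pdzk1ip1 and Gata3 windows held none of these letters, which says nothing about binding elsewhere.

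After irradiation no member passed 5% between CM and WT by edgeR's quasi-likelihood test, where 0.664% of all genes did; 11 of 36 had an unadjusted p under 0.05, against 11.8% of all genes. DESeq2 called 6 members (4.47% of all genes), Gata3, Lyl1, Pdzk1ip1, Slamf1, Socs2 and Tgm2, and limma-voom called Tgm2 alone (1 member, 1.07% of all genes). The 4 genes called without irradiation kept their direction: the log2 fold change was -2.02 ± 0.39 (adjusted p = 0.0534) for Tgm2, 1.59 ± 0.37 (0.0926) for Pdzk1ip1, 0.52 ± 0.14 (0.129) for Socs2 and 0.64 ± 0.17 (0.129) for Gata3, all by edgeR. Without both libraries of CM animal 3 Tgm2 passed after irradiation as well (adjusted p = 0.0170, edgeR). Whether the genotype difference itself changed with irradiation was tested as the difference of the responses, and no member passed. Within the low and high series the IR values were -2.80 and -1.18 for Tgm2, 1.42 and 1.33 for Pdzk1ip1, 0.38 and 0.59 for Socs2, and 0.77 and 0.34 for Gata3.

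With the 2 libraries of each animal summed, so that an animal enters once, no member passed 5% by edgeR's quasi-likelihood test (0.02% of all genes passed), and 13 of 36 had an unadjusted p under 0.05 (14% of all genes). Tgm2 was fitted on the log2 scale at -2.20 ± 0.28 (adjusted p = 0.0585) and Pdzk1ip1 at 1.80 ± 0.32 (0.0845). DESeq2 on the same sums called 9 members (6.31% of all genes), the 8 of the comparison without irradiation and Txnip, and limma-voom 1 (0.2%).

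Several members separated the genotypes by rank. The counts include the 4 genes called without irradiation, Gata3, Pdzk1ip1, Socs2 and Tgm2, and the others did not pass edgeR's adjusted test. Without irradiation all 3 CM libraries were above all 3 WT libraries for 8 members (22.2%, against 8.14% of all genes) and below them for 3 (8.33%, against 7.84%). After irradiation the counts were 8 higher (9.23% of all genes) and 4 lower (8.36%). Over both treatments together, all 6 CM libraries exceeded all 6 WT libraries for Gata3, Lyl1, Pdzk1ip1, Slamf1, Socs2 and Txnip, 16.7% of members against 3.36% of all genes, and lay below them for Prdm16 and Tgm2, 5.56% against 2.25%. The 2 libraries of an animal are not independent, so these 6 libraries stand for 3 animals. Since the members were chosen with results of these data known, the shares do not test the list.

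Slamf1, which encodes the stem cell antigen CD150, was one of them. Its level was 2.05, 1.83 and 1.96 CPM in WT NIR, 1.74, 1.71 and 1.67 in WT IR, 3.65, 7.40 and 3.76 in CM NIR and 3.06, 6.37 and 3.86 in CM IR. CM was above WT in every library and CM animal 2 was the highest in both treatments; the log2 fold change was 1.34 ± 0.32 (adjusted p = 0.0724, edgeR) without and 1.38 ± 0.33 (0.0973) after irradiation, and 1.30 and 0.95 within the series without irradiation. Cd48 lies 61.9 kb from Slamf1 on chromosome 1 and encodes a SLAM family protein found on progenitors rather than stem cells. It was measured at 124, 194 and 196 CPM in WT NIR, 124, 178 and 159 in WT IR, 145, 416 and 180.0 in CM NIR and 147, 406 and 186 in CM IR. Its groups overlapped, with CM animal 2 more than any other library, and the log2 fold change was 0.53 ± 0.44 (adjusted p = 0.610, edgeR).

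Lyl1, a basic helix-loop-helix relative of Tal1, averaged 61.95 ± 0.0791 CPM in WT NIR and 113 ± 29.5 in CM NIR (SD, n = 3), with a fitted log2 change of 0.86 ± 0.24 (adjusted p = 0.113, edgeR). Without both libraries of CM animal 3 Lyl1 passed, with an adjusted p of 0.0285 without and 0.0216 after irradiation (edgeR). Txnip averaged 184 ± 22.3 and 289 ± 64.4 CPM (0.65 ± 0.20, adjusted p = 0.151, edgeR). Tek, the Tie2 receptor that binds angiopoietin, averaged 3.31 ± 0.207 and 8.01 ± 3.91 CPM (1.27 ± 0.37, adjusted p = 0.124, edgeR), with CM NIR 1 and 3 far above CM NIR 2. These 3 were higher in each CM library than in each WT library of the same treatment, and none passed by edgeR with every library included. Prdm16, a zinc finger factor related to Mecom, was lower at 5.77 ± 0.835 CPM in CM NIR against 10.3 ± 1.51 in WT NIR (-0.84 ± 0.22, adjusted p = 0.0951, edgeR). Mycn, a MYC family factor, was at 7.10, 22.97 and 4.87 CPM in CM NIR and 26.4, 45.99 and 50.9 in WT NIR (-1.82 ± 0.69, adjusted p = 0.244, edgeR), but CM IR 3 was at 38.5 CPM, within the WT range. Tal1 itself was nearly level, at 77.4, 106 and 112 CPM in WT NIR, 93.1, 107 and 107 in WT IR, 98.7, 138 and 112 in CM NIR and 96.9, 123 and 112 in CM IR. Its WT and CM ranges overlapped in both treatments.

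**Figure D3:**
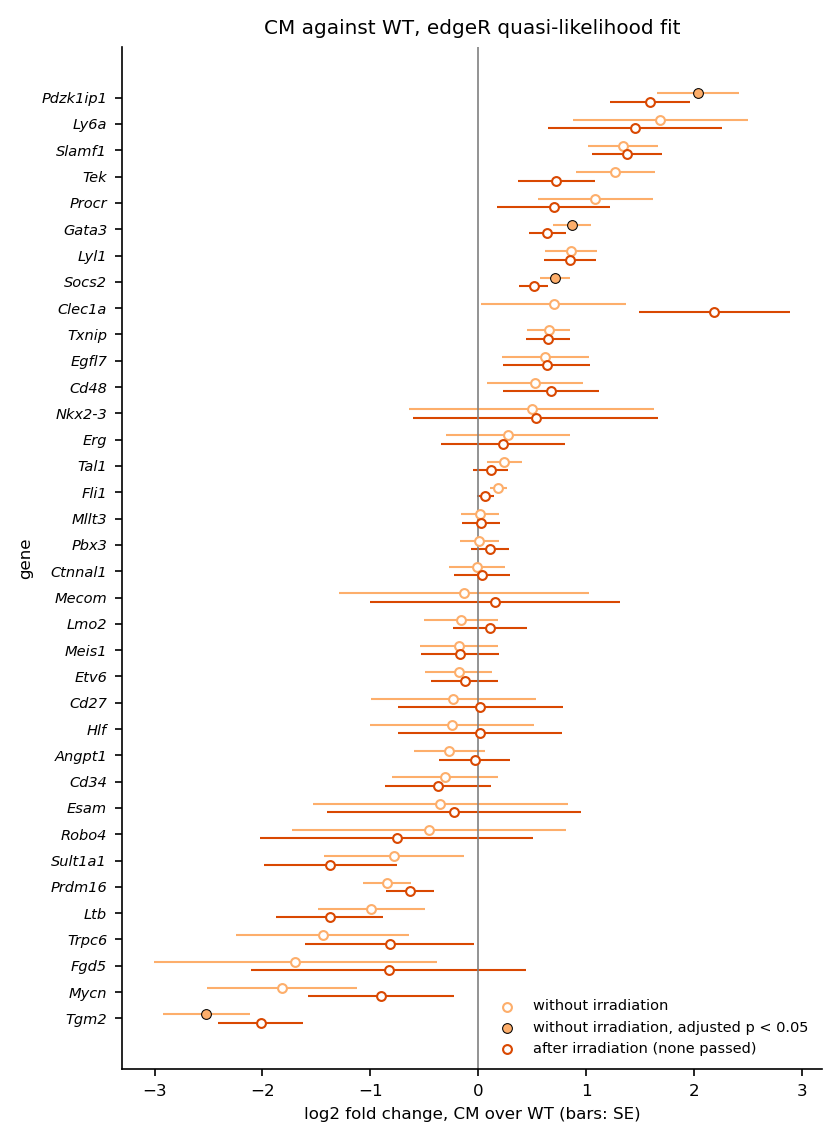
Fitted log2 fold change of CM over WT for each of the 36 members, without irradiation and after it. Bars are 1 standard error, derived from edgeR's quasi-likelihood F statistic. Tgm2 lies farthest to the left at -2.52 and Pdzk1ip1 farthest to the right among the called genes at 2.04, while wide bars mark members that differ between CM animals, such as Mecom and Robo4.

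Many members varied widely between CM animals. In CM NIR the median SD of log2 CPM over the 3 libraries was 0.82 for the members and 0.26 for all genes tested, and in CM IR it was 0.61 and 0.28. In WT NIR it was 0.33 and 0.19, and in WT IR 0.17 and 0.14. An SD over 1 was found for 12 members in CM NIR (33.3%, against 10.8% of all genes) and 11 in CM IR (30.6%, against 9.12%). In WT NIR it was found for 1 member (2.78%, against 4.04% of all genes) and in WT IR for 0 (against 0.952%). The set-apart libraries CM NIR 1, CM IR 1 and CM NIR 3 were the 3 lowest of 12 for 17 of 36 members (47.2%, against 14.2% of all genes), namely Cd27, Cd34, Erg, Esam, Etv6, Fgd5, Hlf, Lmo2, Ltb, Mecom, Meis1, Mycn, Nkx2-3, Prdm16, Robo4, Tgm2 and Trpc6. They were the 3 highest for 6 (16.7%, against 14.4%), Fli1, Ly6a, Pdzk1ip1, Socs2, Tek and Txnip. Both libraries of CM animal 2 were the 2 highest of 12 for 16 members (44.4%, against 16.9%) and the 2 lowest for 0 (13.1% of all genes). The set-apart libraries and CM animal 2 were picked out from these same data, and the members with earlier results known. These shares are therefore a description only.

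Hlf, a PAR domain leucine zipper factor used to mark stem cells, was at 31.7, 85.1 and 78.7 CPM in WT NIR, 48.5, 64.2 and 59.1 in WT IR, 19.95, 127 and 18.8 in CM NIR and 18.2, 94.7 and 60.7 in CM IR. CM NIR 2 exceeded CM NIR 3 by 6.75-fold, and the WT range lay between them. Mecom, the gene of the EVI1 zinc finger factor that keeps stem cells from being lost, was at 5.18, 11.7 and 12.5 CPM in WT NIR, 6.92, 8.57 and 9.82 in WT IR, 1.24, 24.6 and 1.04 in CM NIR and 0.841, 17.00 and 10.4 in CM IR, with CM NIR 2 23.7-fold above CM NIR 3. Meis1, a homeobox partner of HOX proteins, was at 61.2, 79.3 and 74.9 CPM in WT NIR, 69.3, 72.97 and 79.9 in WT IR, 42.01, 106 and 42.4 in CM NIR and 40.05, 85.4 and 72.4 in CM IR. In all 3 genes the CM groups reached both below and above the WT groups, and the CM against WT change without irradiation did not pass: -0.24 ± 0.76 for Hlf, -0.13 ± 1.16 for Mecom and -0.18 ± 0.36 for Meis1 (log2; adjusted p = 0.905, 0.969 and 0.846, edgeR). Erg, an ETS factor that sustains stem cells, had CM animal 2 highest in both treatments, at 53.7, 84.4 and 80.1 CPM in WT NIR, 70.1, 79.6 and 76.7 in WT IR, 46.2, 177 and 40.8 in CM NIR and 41.4, 156 and 68.8 in CM IR.

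Fgd5 was scarce, at 0.577, 2.95 and 2.23 CPM in WT NIR, 1.23, 2.25 and 1.76 in WT IR, 0.0266, 1.68 and 0.0675 in CM NIR and 0.0480, 1.34 and 1.57 in CM IR. Its level in CM NIR 1, CM NIR 3 and CM IR 1 rests on a handful of reads, so no fold is given. Mllt3, the AF9 chromatin reader, varied little and was at 29.5, 24.3 and 25.98 CPM in WT NIR, 25.2, 22.1 and 27.2 in WT IR, 22.1, 34.1 and 24.3 in CM NIR and 21.5, 28.6 and 25.8 in CM IR. Its groups overlapped throughout. Clec1a was near the limit of detection, at 0.0577, 0.152 and 0.102 CPM in WT NIR, 0.0704, 0.0425 and 0.0352 in WT IR, 0.173, 0.0635 and 0.283 in CM NIR and 0.360, 0.0704 and 0.251 in CM IR, and its fitted CM against WT log2 change after irradiation of 2.19 ± 0.70 (adjusted p = 0.207, edgeR) rests on 4 to 30 reads a library over the whole set.

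Among surface proteins, Cd34 was at 298, 573 and 564 CPM in WT NIR, 509, 743 and 671 in WT IR, 232, 699 and 229.6 in CM NIR and 247, 744 and 497 in CM IR. The 3 set-apart libraries were the lowest and the group ranges overlapped. Ly6a, which encodes Sca-1, the antigen by which the cells were sorted, ran the other way at 140.3, 68.98 and 41.96 CPM in WT NIR, 76.9, 66.7 and 44.7 in WT IR, 306, 46.7 and 457 in CM NIR and 323, 49.7 and 144 in CM IR. It was 9.79-fold higher in CM NIR 3 than in CM NIR 2. Procr, the EPCR receptor of activated protein C, was at 1.89, 1.70 and 1.49 CPM in WT NIR, 2.94, 2.49 and 2.48 in WT IR, 2.45, 6.78 and 1.57 in CM NIR and 3.15, 7.30 and 2.43 in CM IR. CM animal 2 was the highest in both treatments, and the CM and WT groups overlapped. Cd27, a TNF receptor family member, differed 8.76-fold between CM NIR 2 and CM NIR 3, and the homeobox gene Nkx2-3 differed 25.6-fold. The cation channel gene Trpc6 was at 1.82, 10.2 and 1.62 CPM in CM NIR and 9.80, 15.1 and 12.3 in WT NIR, and both groups overlapped. The lymphotoxin gene Ltb was at 0.678, 2.67 and 1.05 CPM in CM NIR and 2.38, 3.51 and 2.86 in WT NIR, where the groups overlapped. It was at 0.649, 1.62 and 1.91 CPM in CM IR and 3.56, 4.10 and 3.22 in WT IR. After irradiation its CM libraries thus all lay below its WT libraries, without passing edgeR's adjusted test.

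**Figure D4:**
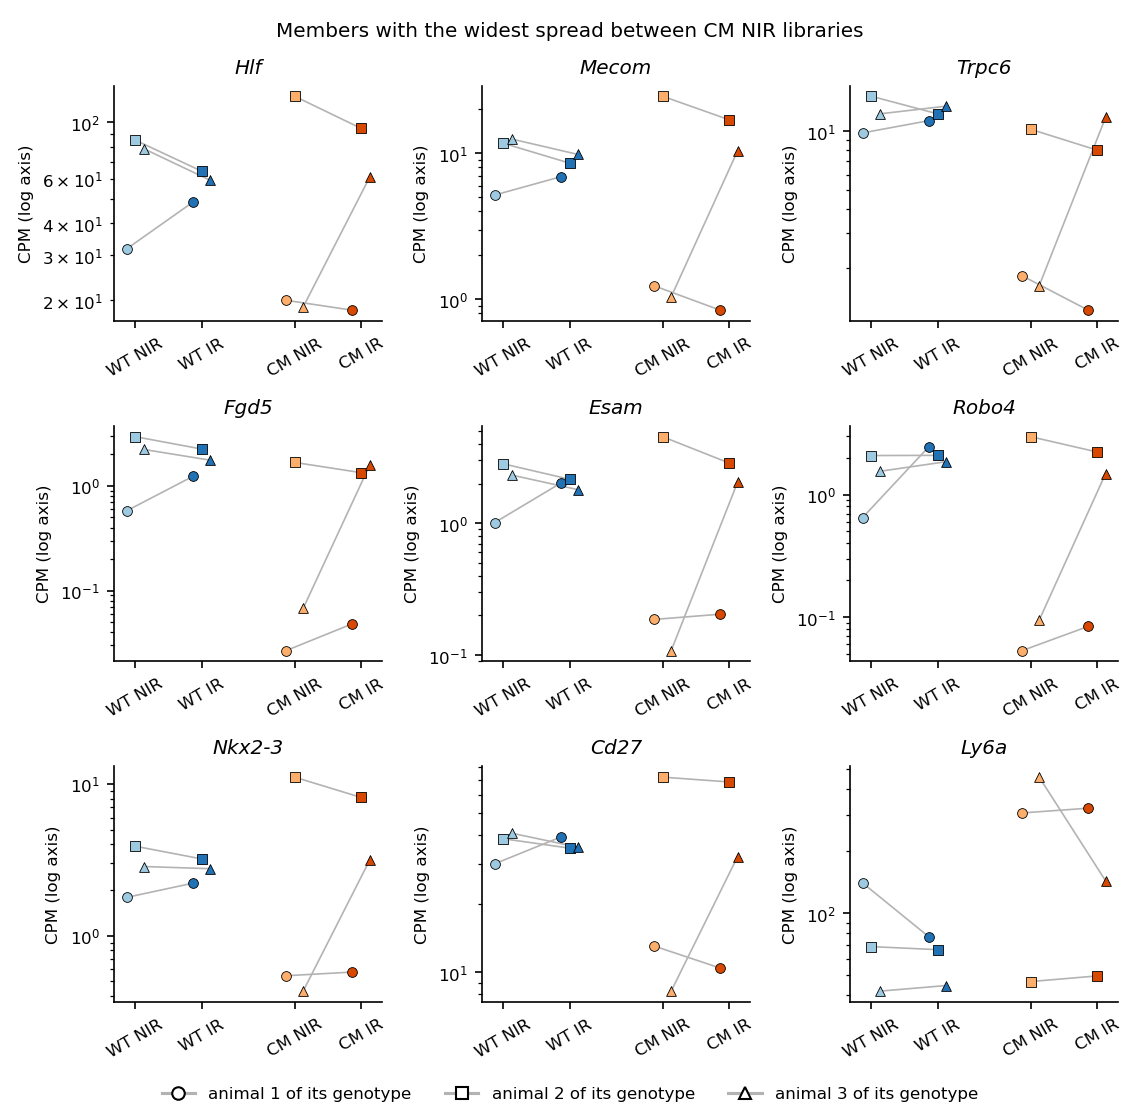
CPM on a log axis of the 9 members with the widest spread between CM NIR libraries, with lines joining the NIR and IR library of each of the 6 animals. CM animal 1 is low and CM animal 2 high in both treatments for Hlf and Mecom, in both genes CM animal 3 moves from low without irradiation to the WT range after it, and Ly6a is high in CM NIR 3 and lower in CM IR 3.

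Esam, Egfl7, Robo4 and Tek are shared by stem cells and endothelium. Esam was at 0.186, 4.53 and 0.108 CPM in CM NIR and 1.01, 2.82 and 2.32 in WT NIR, and Robo4, 114.1 kb from it on chromosome 9, at 0.0532, 2.97 and 0.0945 in CM NIR and 0.649, 2.08 and 1.55 in WT NIR. Egfl7, a secreted vascular protein, reached 64.7 CPM in CM NIR 2 against 21.1 to 26.5 in WT NIR, and Angpt1, the Tek ligand, was at 75.1, 154 and 92.9 in CM NIR and 89.5, 153 and 145 in WT NIR. Esam and Robo4 were low in the set-apart libraries while Tek was high in them. Of the endothelial markers Cldn5 did not exceed 0.02 CPM and Cdh5 stayed between 0.38 and 0.84 CPM in every library, while Pecam1, also made by blood cells, was at 159 to 327 CPM; the 12 markers summed to 182 to 186 CPM in the set-apart libraries and 255 to 377 in the others. Other lineage markers also moved with these libraries. The summed level of 11 mast cell and basophil genes was 1804 to 2355 CPM in the set-apart libraries and 217 to 1355 in the other 9, and that of 10 T and NK cell genes 9.86 to 12.1 against 24.5 to 46.5. The sum of 10 mature neutrophil genes was 912 to 1787 against 205 to 845, but the mean over these genes of centred log2 CPM was low, at -1.44 to -1.03 in the set-apart libraries and -1.11 to 1.58 in the others. The 9 megakaryocyte genes likewise separated by their sum (417 to 504 against 152 to 353) and not by that mean (-0.16 to 0.04 against -0.43 to 0.47). So did 11 multipotent and lymphoid-primed progenitor genes (sum 1174 to 1267 against 695 to 1092, mean -0.30 to -0.02 against -0.44 to 0.65). The same held for 10 stromal genes (sum 10.4 to 12.3 against 24.2 to 42.1), with the mean over the 7 tested at -0.05 to 0.32 against -0.47 to 0.31. The sums of 9 macrophage genes overlapped, at 2337 to 2825 and 473 to 2592. Their part in the levels of the identity genes was not tested.

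Lmo2, Etv6, Pbx3, Ctnnal1 and Sult1a1 overlapped between the genotypes without irradiation. Lmo2 was at 141, 318 and 168 CPM in CM NIR and 169, 261 and 269 in WT NIR, and Etv6 at 293, 552 and 278 in CM NIR and 294, 492 and 487 in WT NIR. Pbx3 stayed between 4.59 and 7.05 CPM over the 12 libraries. Ctnnal1, the alpha-catulin gene used to trace stem cells in reporter mice, was at 8.74, 14.6 and 9.14 CPM in CM NIR and 8.38, 11.6 and 12.7 in WT NIR. Sult1a1 did not exceed 0.255 CPM. After irradiation its CM libraries (0.0480, 0.117 and 0.0479 CPM) all lay below its WT libraries (0.153, 0.149 and 0.255), on few reads and without passing edgeR's adjusted test.

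Irradiation moved none of the 36 members past 5% by edgeR's quasi-likelihood test in WT (0.116% of all genes passed), in CM (0.00685%), averaged over both (0.308%) or in the difference between the responses (0%). The fit holds 1 estimate of the spread per gene for all groups, so the spread between CM animals also enters the WT test. A count of 0 in WT therefore does not show that the members stayed level there. At an unadjusted p under 0.05 the counts were 0 in WT (4.05% of all genes), 3 in CM (Gata3 and Socs2 lower, Tgm2 higher; 1.62%), 2 in the average (Gata3 lower, Tgm2 higher; 5.19%) and 0 in the difference (0.726%). DESeq2 called 0 members in each (0.959%, 0.123%, 1.16% and 0% of all genes, in that order), as did limma-voom (0.212%, 0.00685%, 0.295% and 0%). The median fitted log2 change over the members was -0.06 in WT and 0.03 in CM, against -0.01 and 0.00 over all genes. With 1 library left out the WT median ran from -0.12 (without WT NIR 1) to 0.06 (without WT NIR 2) and the CM median from -0.20 (without CM IR 2) to 0.52 (without CM NIR 2), and both changed sign. With the animal as a block, which fits the pairing of NIR and IR libraries, edgeR still called 0 members in WT (1.12% of all genes passed), in CM (0%), in the average (2.07%) and in the difference (0%). At an unadjusted p under 0.05 the block gave 2 members in WT (13.5% of all genes), 3 in CM (6.61%), 6 in the average (17%) and 0 in the difference (2.86%).

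Taking each animal's IR library against its own NIR library, Cd34, Procr and Tgm2 were higher in all 6 animals (8.33% of members, against 5.93% of all genes) and Egfl7, Gata3 and Socs2 lower in all 6 (8.33%, against 6.57%), shares near those of all genes. The log2 changes of Procr were 0.61, 0.52 and 0.70 in WT animals 1, 2 and 3 and 0.35, 0.10 and 0.60 in CM animals 1, 2 and 3. With the animal as a block Procr averaged 0.50 ± 0.10 (log2; adjusted p = 0.0624, edgeR), and without it 0.45 ± 0.37 (adjusted p = 0.99991). Its WT IR libraries were all above its WT NIR libraries, which held for 1 of 36 members (7.47% of all genes), and in CM the groups overlapped. The main fit gave 0.64 ± 0.53 (log2) for Procr in WT, with a standard error that also holds the spread of the CM animals.

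Gata3 changed by -0.15, -0.22 and -0.21 in WT animals 1, 2 and 3 and -0.04, -0.49 and -0.73 in CM animals 1, 2 and 3. Its IR libraries were all below its NIR libraries in both genotypes; in WT Slamf1 was the only other member of which this was true (2 of 36, against 6.63% of all genes), and in CM Gata3 was alone (0.986%), with 0 members higher (1.57%). The averaged change of Gata3 was -0.32 ± 0.12 (adjusted p = 0.739, edgeR). Tgm2 changed by 0.12, 0.58 and 0.74 in WT animals 1, 2 and 3 and 0.36, 0.10 and 2.06 in CM animals 1, 2 and 3, with CM animal 3 far beyond the rest, and averaged 0.67 ± 0.27 (adjusted p = 0.797, edgeR). Socs2 changed by -0.13, -0.13 and -0.07 in WT animals 1, 2 and 3 and -0.11, -0.31 and -0.49 in CM animals 1, 2 and 3, downward in each animal. Cd34 changed by 0.77, 0.38 and 0.25 in WT animals 1, 2 and 3 and 0.09, 0.09 and 1.11 in CM animals 1, 2 and 3, and Egfl7 changed by -0.14, -0.23 and -0.50 in WT animals 1, 2 and 3 and -0.11, -0.45 and -0.03 in CM animals 1, 2 and 3. With the block the averaged changes were -0.20 ± 0.05 for Socs2, -0.25 ± 0.07 for Egfl7 and 0.45 ± 0.15 for Cd34 (log2; adjusted p = 0.119, 0.157 and 0.193, edgeR).

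**Figure D5:**
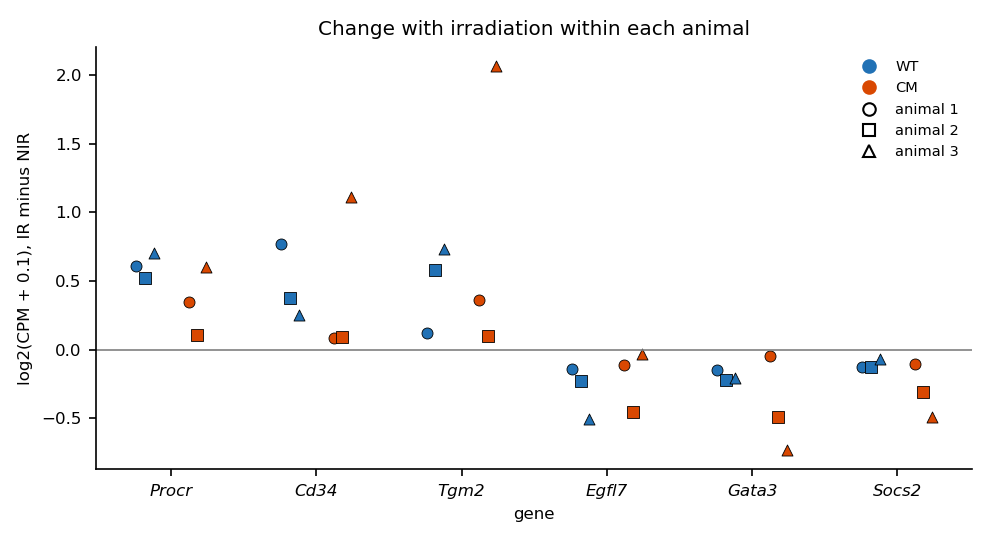
Log2 change in CPM from the NIR to the IR library of each animal for the 6 members that moved one way in every animal, with WT and CM animals marked by colour. Procr, Cd34 and Tgm2 lie above 0 and Gata3, Socs2 and Egfl7 below 0 in all 6 animals, and CM animal 3 holds the most distant points of Tgm2 and Cd34.

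CM animal 3 changed most between its libraries for several members. In that animal Mecom was 10.01-fold, Mycn 7.90-fold and Hlf 3.23-fold higher in the IR than in the NIR library, and Ly6a was 3.18-fold lower. The log2 changes of Mecom were 0.41, -0.45 and -0.35 in WT animals 1, 2 and 3 and -0.51, -0.53 and 3.20 in CM animals 1, 2 and 3, and those of Hlf 0.61, -0.41 and -0.41 in WT animals 1, 2 and 3 and -0.13, -0.42 and 1.69 in CM animals 1, 2 and 3. No other animal approached CM animal 3 in either gene. CM NIR 3 is one of the set-apart libraries and CM IR 3 is not, so that change of library and the irradiation of that animal cannot be told apart. The values above for CM animal 3 rest on its labels, and an exchange of samples, under which they would not be a change within 1 animal, was not tested.

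Fli1, an ETS factor of stem cells and megakaryocytes, was the steadiest member, at 131, 119 and 117 CPM in WT NIR, 133, 126 and 128 in WT IR, 148, 132 and 138 in CM NIR and 141, 128 and 136 in CM IR. The IR changes were 0.02, 0.08 and 0.12 in WT animals 1, 2 and 3 and -0.07, -0.04 and -0.02 in CM animals 1, 2 and 3, upward in each WT animal and downward in each CM animal. The difference of the responses was -0.12 ± 0.11 (log2) and did not pass (adjusted p = 0.99999, edgeR). Clec1a had the smallest p of any member for that difference, at 1.49 ± 0.97 (adjusted p = 0.99999, edgeR), on few reads.

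Other genes tied to stem cells were read from a list of 58, of which 55 were tested. Without irradiation Runx1, the DNA-binding partner of CBFB, was higher in CM by 0.38 ± 0.07 (log2, adjusted p = 0.0328, edgeR), and 0 were lower. That 1 of 55 stands beside 1.62% of all genes called in this comparison, a share near it. With the animal as a random block in limma-voom the adjusted p of Runx1 was 0.0971. In each of the remaining comparisons 0 of 55 passed by edgeR, with 1 to 11 of 55 at an unadjusted p under 0.05, where 0.726% to 14% of all genes had one. These ranges pair no count with its own share, so no excess is read from them. DESeq2 called 1 after irradiation (Itgb3, an integrin gene of megakaryocytes), against 4.47% of all genes. With the animal as a block Eng, the TGF-beta co-receptor endoglin, rose after irradiation by 0.57 ± 0.07 averaged over both genotypes (adjusted p = 0.0167, edgeR). In WT it rose by 0.70 ± 0.10 (0.0290). Of all genes 2.07% passed in that average and 1.12% in WT. Without the block the changes of Eng were 0.56 ± 0.23 and 0.70 ± 0.32 (adjusted p = 0.830 and 1, edgeR).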

How the data were processed

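The authors deposited 1 table of read counts and 1 of RPKM per gene for the same 12 libraries. The submitters' processing notes name bcl2fastq 2.18.0.12, TopHat2, HTSeq 0.6.1p1 and mm10; of the annotation and strand setting the sources used here say nothing. The kit was stranded with ribosomal RNA removal, per the labels' protocols. The deposited RPKM values were used for levels between genes and as an alternative scale, log2(RPKM + 0.1) or log2(RPKM + 1) with limma.

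Genes were kept by edgeR's filterByExpr (minimum count 10, total 15), scaled by TMM and tested with edgeR 4.0.16 in R 4.3.3 on all 12 libraries with 1 mean per group, over 7 contrasts, with Benjamini-Hochberg adjustment over all genes at 0.05. Log2 changes per animal and differences within a library series used log2(CPM + 0.1), without a fit. Alternatives used DESeq2 1.42.0, limma 3.58.1 (voom), RLE scaling, no filter, the library number series as a term, an animal block and left-out libraries. Replicates are the animals numbered in the labels. NIR and IR libraries of 1 animal carry the same animal number. Their deviations from the group mean correlated at 0.67, 0.50 and 0.41 in WT and 0.79, 0.84 and 0.13 in CM. They were taken as paired in the changes per animal and the block fits. The main fit had no term for the animal and did not use the pairing. For CM animal 3, at 0.13, the pairing rests on the label.

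The members and gene lists were chosen with earlier results of these data known. Per-library values are given for 12 preset members, for each called member and for the 2 with the smallest p per contrast. Sequences are from RefSeq (GRCm38.p6). The code was tested on simulated counts. Not every result of the list of other stem cell genes is reported here.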

Additional observations from a re-analysis of the deposited data

Results flagged for a closer look

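Fli1 was the 1 member whose IR change ran upward in every WT animal and downward in every CM animal. The share of all genes with that pattern was not computed, so the pattern is a description and not a result about Fli1. The log2 changes were 0.02, 0.08 and 0.12 in WT animals 1, 2 and 3 and -0.07, -0.04 and -0.02 in CM animals 1, 2 and 3. The difference of the responses, CM minus WT, was -0.12 on the log2 scale. It was tested as an interaction by edgeR's quasi-likelihood test and did not pass (adjusted p = 0.99999), nor did it with the animal as a block, where it was -0.12 ± 0.06 (adjusted p = 0.99995). All Fli1 libraries lay within a 1.26-fold range of CPM.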

How the results depend on the processing

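The count of members called between CM and WT without irradiation was 4 and became 8 with DESeq2, 1 with the library number series as a term (Tgm2) and 2 without CM animal 3 (Lyl1 and Tgm2). It became 0 without CM animal 1 and 0 without CM animal 1 and CM NIR 3, both chosen after seeing the data. It ran from 0 to 9 when 1 library was left out, with 9 without CM NIR 2 and 0 without any 1 of the other NIR libraries. With the replicate block (animal as a random effect in limma-voom) it was 0. After irradiation the count was 0 and became 6 with DESeq2, 1 each with limma-voom, RLE scaling, no filter and the 3 RPKM settings, 2 without CM animal 3 (Lyl1 and Tgm2), and 0 to 3 with 1 library left out (3 without CM IR 3: Lyl1, Prdm16 and Tgm2). With counts summed per animal it was 0 and became 9 with DESeq2, 1 each with limma-voom and the 3 RPKM settings, and 0 to 10 with 1 animal left out (10 without CM animal 2). The counts for irradiation in WT, in CM, averaged and for the difference of responses were 0 under every alternative run, the replicate block included. After irradiation limma-voom called 1 member (Tgm2) without and 0 with the replicate block. No share of all genes was computed for the left-out, series, RLE, unfiltered and RPKM settings. Their counts are therefore not read as results about the members. The cause of these shifts was not tested. No called change reversed direction. Low counts limit Clec1a, Sult1a1, Fgd5, Robo4 and Esam. With 3 animals a genotype the wide spread between CM animals limits every CM comparison. The main fit holds 1 estimate of the spread per gene for all groups, so that spread also limits its test of irradiation in WT.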
